A study of Mus musculus with 8 samples.

Results

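The enzymes described here make fatty acids in the liver, lengthen them and place double bonds in them, and their mRNA was compared between mice administered a standard chow (STD) diet and an atherogenic (ATH) diet. The set was chosen by function and holds 10 genes: Acly, Me1, Acaca, Fasn, Thrsp, Elovl6, Elovl5, Scd1, Fads1 and Fads2. All 10 had at least 1 detected probe, out of 16558 genes with a detected probe on the array. They were read by 17 probes, of which 16 were detected, and 5 of the genes had several probes.

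Liver RNA came from 8 wild-type male mice (C57BL/6 in the labels, C57BL/6J in the study's methods), 4 on each diet, with 1 mouse per array. The diets were given for 4 weeks, and the labels give an age of 14 to 17 weeks at the start. The ATH diet, labeled high-fat/high-cholesterol in the sample records, also contained cholic acid, a bile acid, so that fat, cholesterol and bile acid differed from chow together.

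De novo lipogenesis turns surplus carbohydrate carbon into fatty acids. Citrate leaves the mitochondrion and is split to acetyl-CoA, acetyl-CoA is carboxylated to malonyl-CoA, and fatty acid synthase joins these units with reducing power from NADPH to give palmitate. Elongases then add carbons, and desaturases add double bonds: the delta-9 desaturases make oleate and palmitoleate, and the delta-5 and delta-6 desaturases act on dietary polyunsaturated acids on the way to arachidonic acid. In liver many of these genes are induced by the transcription factors SREBP-1c, ChREBP and LXR, and polyunsaturated fat and cholesterol are known to act on that control.

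The members did not move as 1 block. Scd1 rose 2.56-fold on the ATH diet, whereas Acly, Me1 and Fads1 fell 1.75-fold, 2.40-fold and 2.07-fold. The other 6 did not pass the test: Thrsp and Fads2 had lower means, Fasn and Elovl6 had means within the spread between mice, and Acaca and Elovl5 had slightly higher means. Among the 10 genes, limma called 3 lower and 1 higher at the 5% false discovery rate, where 5.3% of all genes were called lower and 4.05% higher. At the 1% rate Scd1 alone was called, where 0.38% of all genes were called lower and 0.26% higher. The median log2 fold change of the 10 genes was -0.37, beside -0.14 over all genes, and the 3 genes with a positive change were Acaca, Elovl5 and Scd1.

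Each level below is a scaled log2 signal, the log2 of the processed intensity less the 75th percentile of that array, so 0 is that percentile. Levels of different probes cannot be set against each other, since probes differ in how strongly they bind. The 75th percentile itself was higher on the ATH diet arrays by 0.45 on the log2 scale, and the added control transcripts by 0.14, so every change depends in part on the scaling. Of all detected probes 4.94% were called lower and 3.06% higher at this scaling, against 1.2% and 22.5% without scaling and 1.44% and 8.39% with spike-in scaling. Each diet had a slide to itself, so the effects of slide and of diet cannot be told apart. Over the 8 arrays, 72.3% to 77.8% of spots were well above background. Because whole liver was measured, fewer cells of a type and less RNA per cell cannot be told apart.

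Of the marker genes listed for liver cell types, 10 of 12 hepatocyte genes were matched to a probe, and Tf and Serpina1a were not. All 10 were detected, with a median log2 fold change of -0.27 and 1 called lower. Without scaling this hepatocyte median was 0.17, with quantile normalization 0.07 and with spike-in scaling 0.03. Macrophage markers were higher in all 12 genes, 4 of them called, with a median of 1.45. Their summed linear level was between 67.5 and 91.0 in the STD mice and 227, 125, 610 and 661 in ATH mice 1 to 4, so ATH mouse 2 was nearest to chow. Adipocyte markers had a median of -0.57 with 0 called by limma, 7 of 8 detected and Lep, the leptin gene, not detected. Their summed level ran from 6.32 to 7.37 in STD mice and from 6.97 to 11.6 in ATH mice. Medians were 0.37 for 10 stellate cell markers (1 called higher), 0.29 for 6 cholangiocyte markers (1 called higher) and 0.25 for 8 T and B cell markers (0 called by limma). The part of these shifts in the results below was not tested.

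Promoters of 8 of the 10 genes were found in a RefSeq table of 300-base windows (250 bases before to 50 after the start, build GRCm38.p6), with 9 windows in all since Me1 has 2. Scd1 and Fads1 had no window there, so neither is shown. The windows of Acly, Me1 and Fads2, in which every ATH mouse read below every STD mouse, are shown with that of Fasn, the central enzyme of the pathway, for which no change was called. Capitals mark, on either strand, the CCAAT box, the GC box (GGGCGG), the nuclear receptor half-site (AGGTCA), the E-box (CACGTG) and the sterol regulatory element (TCACNCCAC), and all 4 sequences run 5′ to 3′ along the minus strand of their chromosome.
Acly, chr11:100527951-100528250: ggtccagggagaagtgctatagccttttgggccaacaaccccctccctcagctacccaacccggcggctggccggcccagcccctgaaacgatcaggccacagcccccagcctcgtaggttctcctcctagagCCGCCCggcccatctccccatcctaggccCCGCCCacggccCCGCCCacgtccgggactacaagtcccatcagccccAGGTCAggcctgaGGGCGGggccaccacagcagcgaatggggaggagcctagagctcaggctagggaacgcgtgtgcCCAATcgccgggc
Me1, chr9:86695865-86696164: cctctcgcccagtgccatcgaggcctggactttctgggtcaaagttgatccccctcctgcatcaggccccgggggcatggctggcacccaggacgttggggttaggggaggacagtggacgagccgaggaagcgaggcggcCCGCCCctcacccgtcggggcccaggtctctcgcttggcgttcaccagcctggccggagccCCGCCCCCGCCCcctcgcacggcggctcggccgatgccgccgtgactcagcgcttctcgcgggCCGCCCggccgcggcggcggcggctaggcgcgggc
Fasn, chr11:120824498-120824797: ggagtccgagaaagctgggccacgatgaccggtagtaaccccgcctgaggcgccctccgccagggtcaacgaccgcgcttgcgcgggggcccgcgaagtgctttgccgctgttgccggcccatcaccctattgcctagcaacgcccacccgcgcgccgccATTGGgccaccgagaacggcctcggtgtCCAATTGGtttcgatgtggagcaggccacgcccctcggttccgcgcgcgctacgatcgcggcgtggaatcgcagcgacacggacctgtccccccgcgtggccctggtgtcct
Fads2, chr19:10101454-10101753: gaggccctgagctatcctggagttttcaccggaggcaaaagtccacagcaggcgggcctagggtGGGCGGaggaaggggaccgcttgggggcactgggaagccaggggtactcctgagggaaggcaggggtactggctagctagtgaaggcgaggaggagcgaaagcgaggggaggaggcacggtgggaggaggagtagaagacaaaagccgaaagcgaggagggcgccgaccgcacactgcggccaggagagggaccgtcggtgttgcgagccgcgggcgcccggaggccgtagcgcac
The Acly window held 4 GC boxes, 1 CCAAT box and 1 half-site. The Me1 window shown held 4 GC boxes, the other Me1 window (chr9:86687228-86687527) 0 GC boxes and 1 CCAAT box, and the Fads2 window 1 GC box, and the Fasn window held 3 CCAAT boxes, a pair of them overlapping, and 0 GC boxes. A GC box was present in 35.7% of the 32851 promoters of the table, a CCAAT box in 37.4% and the half-site in 16.3%. The E-box, in 7.15% of promoters, was found only for Elovl5 among the members, and the sterol regulatory element in this form, in 1.24% of promoters, was in 0 of the 9 windows. These are matches of letters in a short window and were chosen after the expression values were seen.

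Acetyl-CoA and NADPH for fatty acid synthesis come in part from the products of Acly and Me1, and both genes fell. Acly encodes ATP citrate lyase, which splits cytosolic citrate to acetyl-CoA. Its detected probe (A_51_P261718, chr11:100586242-100586300 of mm7, minus strand) read 1.63, 1.73, 1.77 and 2.38 in the STD mice and 0.69, 1.29, 1.21 and 1.09 in the ATH mice. All 4 ATH mice lay below all 4 STD mice, with STD mouse 4 standing above the other three and ATH mouse 1 below. The log2 fold change was -0.81 ± 0.20 (SE, n = 4 per diet; limma adjusted p = 0.0467). When the replicate number was fitted as a block that call was lost (limma adjusted p = 0.0578), and it was kept in 1 of 8 fits that left out 1 array. Without scaling the change was -0.36 (limma adjusted p = 0.205). The call was also lost with median scaling (limma adjusted p = 0.0701), quantile normalization (limma adjusted p = 0.0622) and spike-in scaling (limma adjusted p = 0.146). With no detection filter it was lost too (limma adjusted p = 0.0746). A further Acly probe (A_52_P373556) was well above background on 2 STD arrays and 0 ATH arrays and was not tested.

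Me1 encodes cytosolic malic enzyme, which regenerates NADPH as it turns malate to pyruvate. The array names it by its older symbol Mod1. The brighter probe (A_51_P186601, chr9:86689778-86689837 of mm7) read 2.91, 3.39, 3.32 and 2.72 in the STD mice and 1.96, 2.32, 1.48 and 1.53 in the ATH mice. No ATH mouse reached the lowest STD mouse, and ATH mice 3 and 4, with the highest macrophage sums, were the lowest. On the log2 scale the change was -1.26 ± 0.23 (SE; limma adjusted p = 0.0215), and the other probe (A_51_P266861) gave -1.29 ± 0.25 (SE; limma adjusted p = 0.0251). With 1 array left out the change of the brighter probe ranged from -1.43 to -1.15 and was called in 3 of 8 fits.

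**Figure D1:**
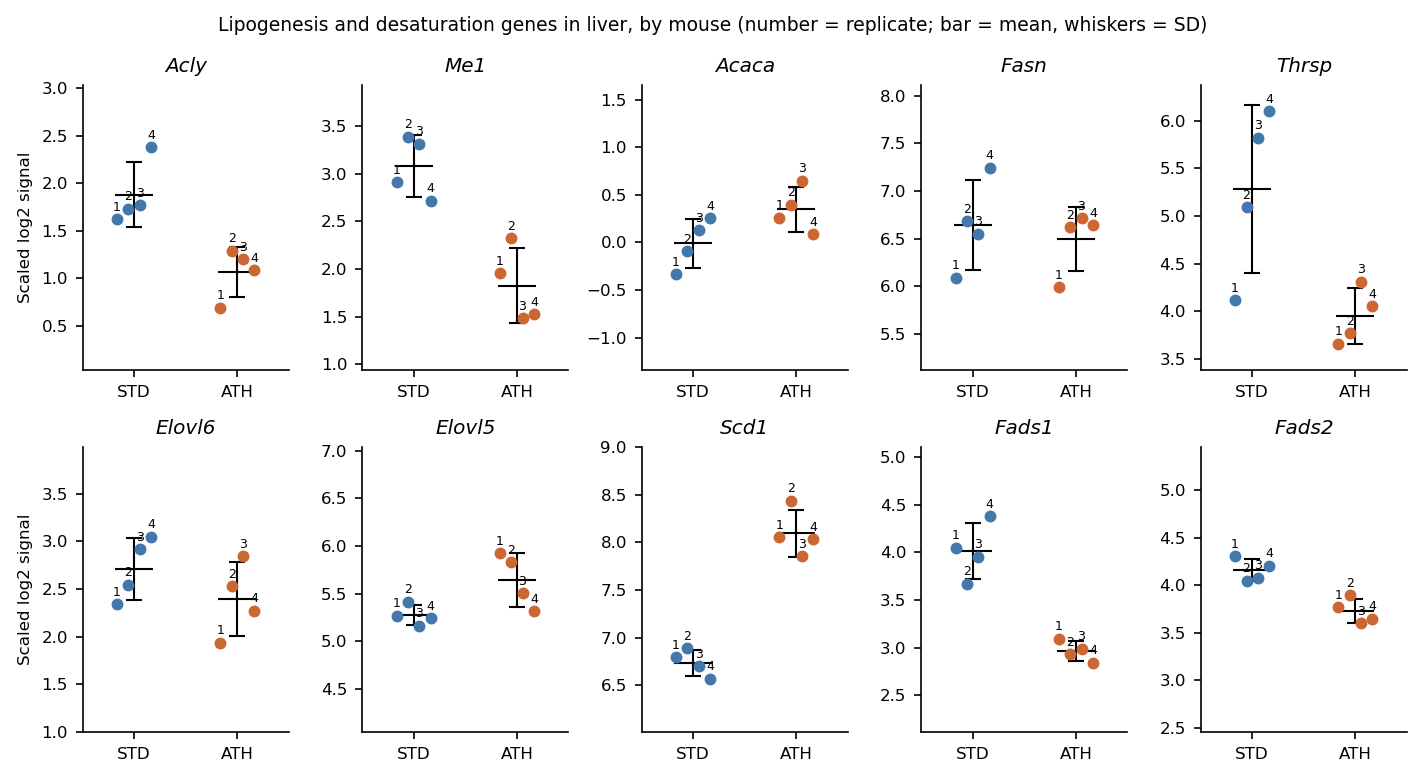
Scaled log2 signal (vertical axis, log2 of intensity less the 75th percentile of the array) of the 10 genes at their brightest probe in 4 STD (blue) and 4 ATH (orange) mice; numbers are replicates, the bar is the mean and whiskers are the SD, and every panel spans the same log2 range. Acly, Me1, Fads1 and Fads2 in ATH mice lie below all STD mice, Scd1 lies above, and the diets overlap in the other 5 genes.

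The synthesis step itself showed no called change. Acaca encodes acetyl-CoA carboxylase 1, which makes malonyl-CoA and commits carbon to the pathway. Its brightest probe (A_52_P318040, chr11:84470765-84470824 of mm7) read -0.33, -0.09, 0.13 and 0.25 in the STD mice and 0.26, 0.40, 0.65 and 0.09 in the ATH mice. ATH mouse 4 fell among the STD mice, and the other three lay above them, mouse 1 barely so. Its log2 fold change was 0.36 ± 0.17 (SE; limma adjusted p = 0.215), with a 95% interval from -0.04 to 0.75. The other 3 probes, all dimmer, gave 0.22, -0.07 and -0.56, so the direction for Acaca differed by probe, and the mean over probes gave -0.01. Without scaling the change of the brightest probe was 0.80 and was called (limma adjusted p = 0.0180).

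Fasn encodes fatty acid synthase, the multienzyme that builds palmitate. Its brighter probe (A_51_P321126, chr11:120916191-120916250 of mm7) read 6.09, 6.68, 6.55 and 7.24 in the STD mice and 5.99, 6.62, 6.72 and 6.64 in the ATH mice. The diets overlapped, and mouse 1, whose arrays sat at one slide position, was the lowest of its group on both. The log2 fold change was -0.15 ± 0.26 (SE; limma adjusted p = 0.737), with a 95% interval from -0.73 to 0.44, so the data leave room for a decrease or an increase. The other probe (A_52_P100252) gave 0.23 ± 0.32 (SE; limma adjusted p = 0.671). The sign for the brighter probe turned to 0.30 without scaling, 0.16 with quantile normalization and 0.16 with spike-in scaling, and no direction is given.

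Thrsp encodes the Spot 14 protein, a thyroid hormone responsive partner of lipogenesis. It read 4.12, 5.09, 5.82 and 6.10 in the STD mice and 3.66, 3.77, 4.31 and 4.05 in the ATH mice (probe A_51_P194099, chr7:93448487-93448546 of mm7). The STD mice spread over 1.98 on the log2 scale, the widest of the 10 genes in either diet, and STD mouse 1 lay among the ATH mice. Its log2 fold change was -1.34 ± 0.40 (SE; limma adjusted p = 0.0696), the largest mean difference toward lower values in the set, and it did not pass. Without STD mouse 1 the change was -1.72 (limma adjusted p = 0.0331). With the normexp background correction it was -1.33 (limma adjusted p = 0.0335).

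The elongases showed no called change at the 75th percentile scaling. Elovl6 encodes the elongase that takes palmitate to stearate. It read 2.34, 2.55, 2.92 and 3.05 in the STD mice and 1.94, 2.53, 2.85 and 2.27 in the ATH mice (probe A_51_P463440, chr3:129477684-129477743 of mm7). The diets overlapped, and the log2 fold change was -0.32 ± 0.23 (SE; limma adjusted p = 0.390), or 0.13 without scaling.

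Elovl5 encodes an elongase of polyunsaturated fatty acids. Its brighter probe (A_51_P505493, chr9:78025742-78025801 of mm7) read 5.27, 5.42, 5.16 and 5.24 in the STD mice and 5.92, 5.83, 5.51 and 5.31 in the ATH mice. ATH mice 1 to 3 lay above all STD mice and ATH mouse 4 lay within them. Its log2 fold change was 0.37 ± 0.16 (SE; limma adjusted p = 0.165), and the other probe (A_52_P676944) gave 0.34 ± 0.18 (SE; limma adjusted p = 0.241). Elovl5 was called higher with 3 other scalings, at 0.67 with quantile normalization (limma adjusted p = 0.0211), 0.68 with spike-in scaling (limma adjusted p = 0.0240) and 0.82 with none (limma adjusted p = 0.0104).

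**Figure D2:**
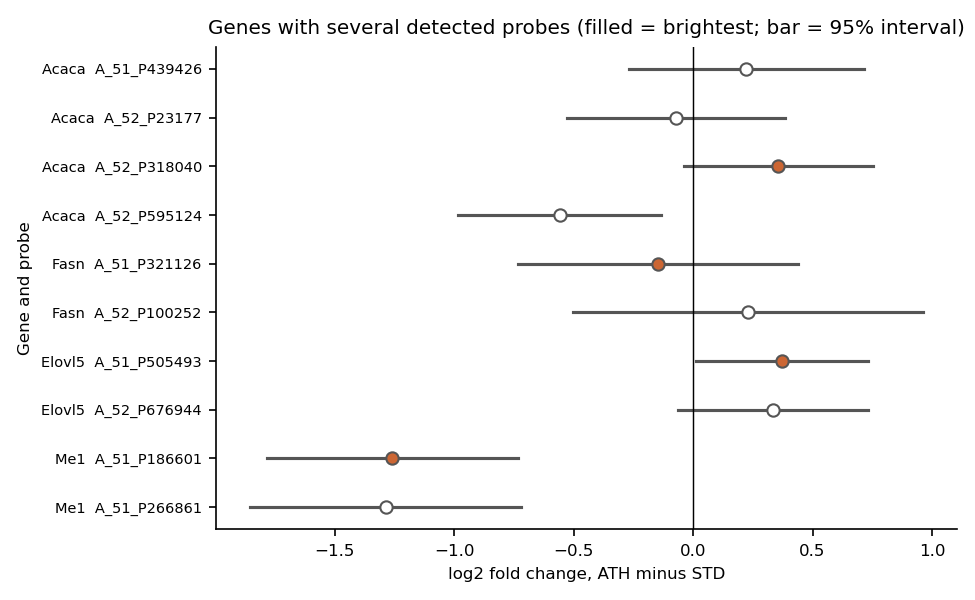
Log2 fold change, ATH minus STD (horizontal axis), with its 95% interval for each detected probe of the 4 genes that had several; filled points are the brightest probe of a gene. The 2 Me1 probes gave -1.26 and -1.29 and the 2 Elovl5 probes 0.37 and 0.34, whereas the 4 Acaca probes ran from -0.56 to 0.36 and the 2 Fasn probes differed in sign.

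Among the desaturases Scd1 rose, Fads1 fell and Fads2 did not pass. Scd1 encodes the main delta-9 desaturase of liver, which makes oleate from stearate. It read 6.79, 6.89, 6.70 and 6.57 in the STD mice and 8.05, 8.44, 7.85 and 8.04 in the ATH mice (probe A_52_P682382, chr19:44288770-44288829 of mm7). The groups were far apart, and both were tight. The log2 fold change was 1.36 ± 0.15 (SE; limma adjusted p = 0.00518). It ranged from 1.24 to 1.44 with 1 array left out and was called in all 8 of those fits, and it was 1.80 without scaling.

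Fads1 encodes the delta-5 desaturase, the last desaturation on the way to arachidonic acid. It read 4.05, 3.67, 3.95 and 4.38 in the STD mice and 3.09, 2.93, 2.99 and 2.84 in the ATH mice (probe A_51_P358112, chr19:9876165-9876224 of mm7). Every ATH mouse was below every STD mouse, and the range of the ATH mice was 0.25. The log2 fold change was -1.05 ± 0.16 (SE; limma adjusted p = 0.0137), called in all 8 fits without 1 array. It was -0.60 without scaling and still called by limma.

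Fads2 encodes the delta-6 desaturase, the entry step of the same route. It read 4.30, 4.05, 4.08 and 4.20 in the STD mice and 3.77, 3.89, 3.60 and 3.65 in the ATH mice (probe A_51_P364609, chr19:9744385-9744815 of mm7). The groups did not overlap, but the difference was small, at -0.43 ± 0.12 (SE; limma adjusted p = 0.0645). Without ATH mouse 2 it was -0.49 (limma adjusted p = 0.0454), and without scaling it was 0.02, so its direction rests on the scaling.

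Groups that did not overlap were thus found for 4 lower genes (Acly, Me1, Fads1 and Fads2), where 14.6% of all genes had such a pattern, and for 1 higher gene (Scd1), where 7.59% did. A log2 ratio between a pair of members on the same array does not depend on a scaling constant of that array. In 5 pairs chosen after the values were seen, and so given with no test, the ratio of Scd1 to Fads1 was 2.72 ± 0.42 in the STD mice and 5.13 ± 0.29 in the ATH mice on the log2 scale (SD, n = 4 per diet), with no overlap. The ratio of Scd1 to Fads2 was higher in the ATH mice by 1.79 and that of Acly to Fasn lower, at a difference of -0.66, both with no overlap. For the Scd1 pairs the lack of overlap was fixed beforehand, since Scd1, Fads1 and Fads2 did not overlap and Scd1 moved oppositely. Me1 over Fasn differed by -1.11 and Elovl5 over Elovl6 by 0.69, and the diets overlapped in both.

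**Figure D3:**
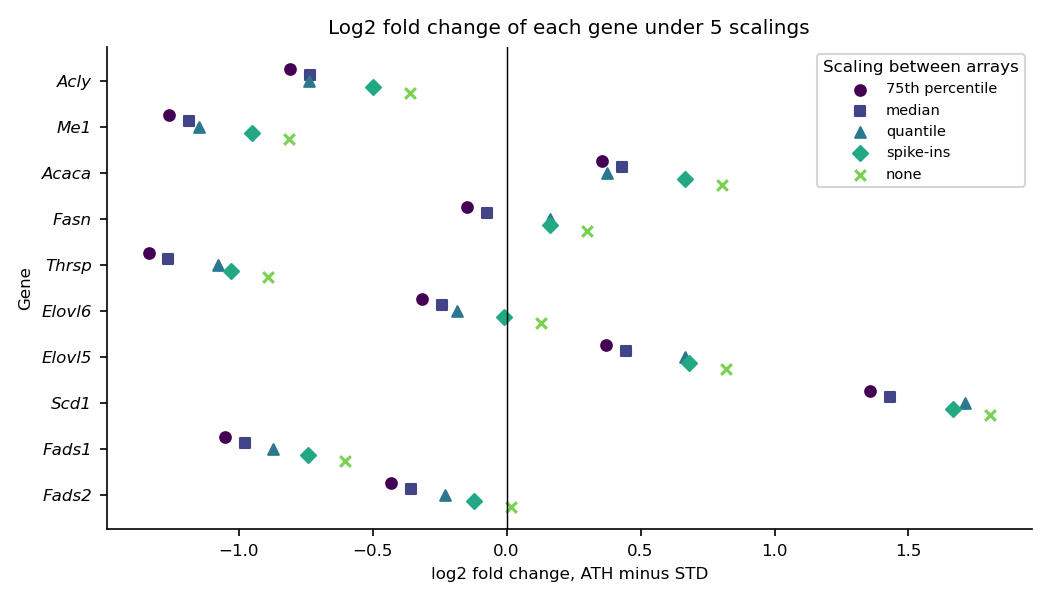
Log2 fold change, ATH minus STD (horizontal axis), of the 10 genes (rows) under 5 ways of scaling between arrays, each with its own marker. Scd1 stays at 1.36 or above and Acly, Me1, Thrsp and Fads1 stay below 0 under all 5, whereas Fasn, Elovl6 and Fads2 cross 0.

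Mice of one diet differed from each other in ways the genes shared. Of the STD mice, mouse 1 was the lowest in 5 genes, Acly, Acaca, Fasn, Elovl6 and Thrsp. STD mouse 4 was the highest in the same 5 genes and in Fads1, and was the lowest in Scd1 and Me1. Thrsp lay 1.17 below the STD mean in mouse 1 and 0.82 above it in mouse 4. Of the ATH mice, mouse 1 was the lowest in Acly, Fasn, Elovl6 and Thrsp, and mouse 3 was the highest in Acaca, Fasn, Elovl6 and Thrsp. The share of spots well above background was 77.3% for STD mouse 1 and 72.3% for STD mouse 4, and its part in this order was not tested.

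**Figure D4:**
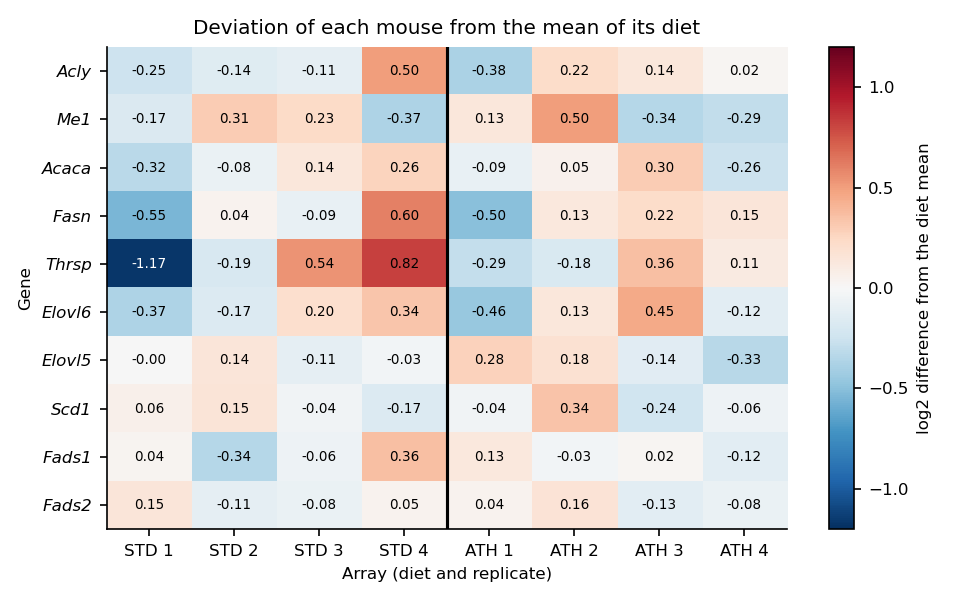
Difference of each mouse from the mean of its own diet on the log2 scale (colour and printed value) for the 10 genes (rows) on 8 arrays (columns). Acly, Acaca, Fasn, Thrsp and Elovl6 are all below the diet mean in STD mouse 1 and all above it in STD mouse 4, and Fads2 stays within 0.165 of its diet mean in every mouse.

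The neighbouring genes of the pathway were read from a list of 65, of which 64 had a detected probe. Of these 16 were called lower, 5 higher and 43 neither, where 5.3% of all genes were called lower and 4.05% higher. Their median change was -0.32 on the log2 scale, beside -0.14 over all genes. Among genes that supply acetyl-CoA and NADPH, 3 of 13 were lower and 1 higher. Acss2, the cytosolic acetyl-CoA synthetase that makes acetyl-CoA from acetate, spanned 3.78 to 4.74 in the STD mice and 1.99 to 3.01 in the ATH mice and fell 3.43-fold (limma adjusted p = 0.0120). Slc25a1, the mitochondrial citrate carrier, fell by 0.91 on the log2 scale (limma adjusted p = 0.0262). This call was lost without scaling (limma adjusted p = 0.123) and with spike-in scaling (limma adjusted p = 0.105), and held in 3 of 8 fits without 1 array. Idh1, the cytosolic isocitrate dehydrogenase, fell by 0.68 (limma adjusted p = 0.0427, or 0.0530 with the replicate block). The Idh1 call was lost without scaling (limma adjusted p = 0.197) and with spike-in scaling (limma adjusted p = 0.0868), and held in 1 of 8 fits without 1 array. Me2, a mitochondrial malic enzyme, rose by 0.96 (limma adjusted p = 0.0329), and its call also held in 1 of 8 such fits. By direction alone, 9 of the 13 genes were lower and 4 higher. Acss1 (1.42, limma adjusted p = 0.0528) and G6pdx (1.32, limma adjusted p = 0.0518) had higher means that did not pass. In both, the 4 ATH mice stood in the same order as in the summed macrophage markers. The part of these markers in the result was not tested.

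Of 5 partners of malonyl-CoA and synthesis, 1 was lower. Acacb, the mitochondrial acetyl-CoA carboxylase whose malonyl-CoA restrains fatty acid oxidation, read 3.32, 3.36, 3.84 and 4.02 in the STD mice and 1.95, 1.45, 2.09 and 1.86 in the ATH mice. The groups were well separated, and the fall was 3.47-fold (limma adjusted p = 0.00585), although a second, dimmer probe gave -0.61. Mid1ip1, a relative of Thrsp that activates the carboxylase, differed by 0.09 (limma adjusted p = 0.830).

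Among 10 detected genes of elongation beside the members, 2 were lower and 2 higher, and Elovl4 was not detected. Tecr and Hacd3, a reductase and a dehydratase that complete each round of elongation, fell by 0.86 (limma adjusted p = 0.0175) and by 0.61 (limma adjusted p = 0.0273, or 0.0569 with the replicate block). Both calls were lost without scaling (limma adjusted p = 0.0557 and 0.265). The Hacd3 call was also lost with quantile normalization (limma adjusted p = 0.138) and with spike-in scaling (limma adjusted p = 0.111). Hacd4, a further dehydratase, rose by 1.31 (limma adjusted p = 0.0366), its other probe gave 0.50, and the call held in 1 of 8 fits without 1 array. Elovl7 read -4.71, -5.14, -4.69 and -4.87 in the STD mice and -3.52, -4.30, -2.01 and -1.92 in the ATH mice, with a change of 1.92 (limma adjusted p = 0.0495, or 0.0559 with the replicate block), and its other probe gave 0.04. ATH mice 3 and 4, the highest in Elovl7 and Hacd4, also had the highest summed level of macrophage markers, and mouse 2 was the lowest in all 3 measures; the part of these markers in the result was not tested. Elovl2, an elongase of polyunsaturated acids, was at -0.00 (limma adjusted p = 0.995), and Elovl3 at -0.61 (limma adjusted p = 0.132).

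Other desaturases and electron donors gave 3 lower and 2 higher of 8. Scd2, a delta-9 desaturase that is low in adult mouse liver, read -1.09, -0.65, -1.06 and -0.67 in the STD mice and 1.19, 0.86, 1.25 and 1.94 in the ATH mice. It rose 4.53-fold (limma adjusted p = 0.00423), the groups did not overlap, and it was called in all 8 fits without 1 array. The 4 ATH mice stood in the same order in Scd2 as in the summed macrophage markers, and the part of these markers in the result was not tested. The related Scd3 rose by 0.55 (limma adjusted p = 0.0426) and Scd4 fell by 0.68 (limma adjusted p = 0.0476, or 0.0700 with the replicate block). The Scd4 call was lost without scaling (limma adjusted p = 0.290) and with spike-in scaling (limma adjusted p = 0.166), and held in 1 of 8 fits without 1 array. The Scd genes are close relatives, and cross-hybridization between their probes was not tested. Cyb5b and Cyb5r3, a cytochrome b5 and a cytochrome b5 reductase, fell by 0.93 (limma adjusted p = 0.0190) and by 0.76 (limma adjusted p = 0.0254). The Cyb5r3 call was lost without scaling (limma adjusted p = 0.0982).

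**Figure D5:**
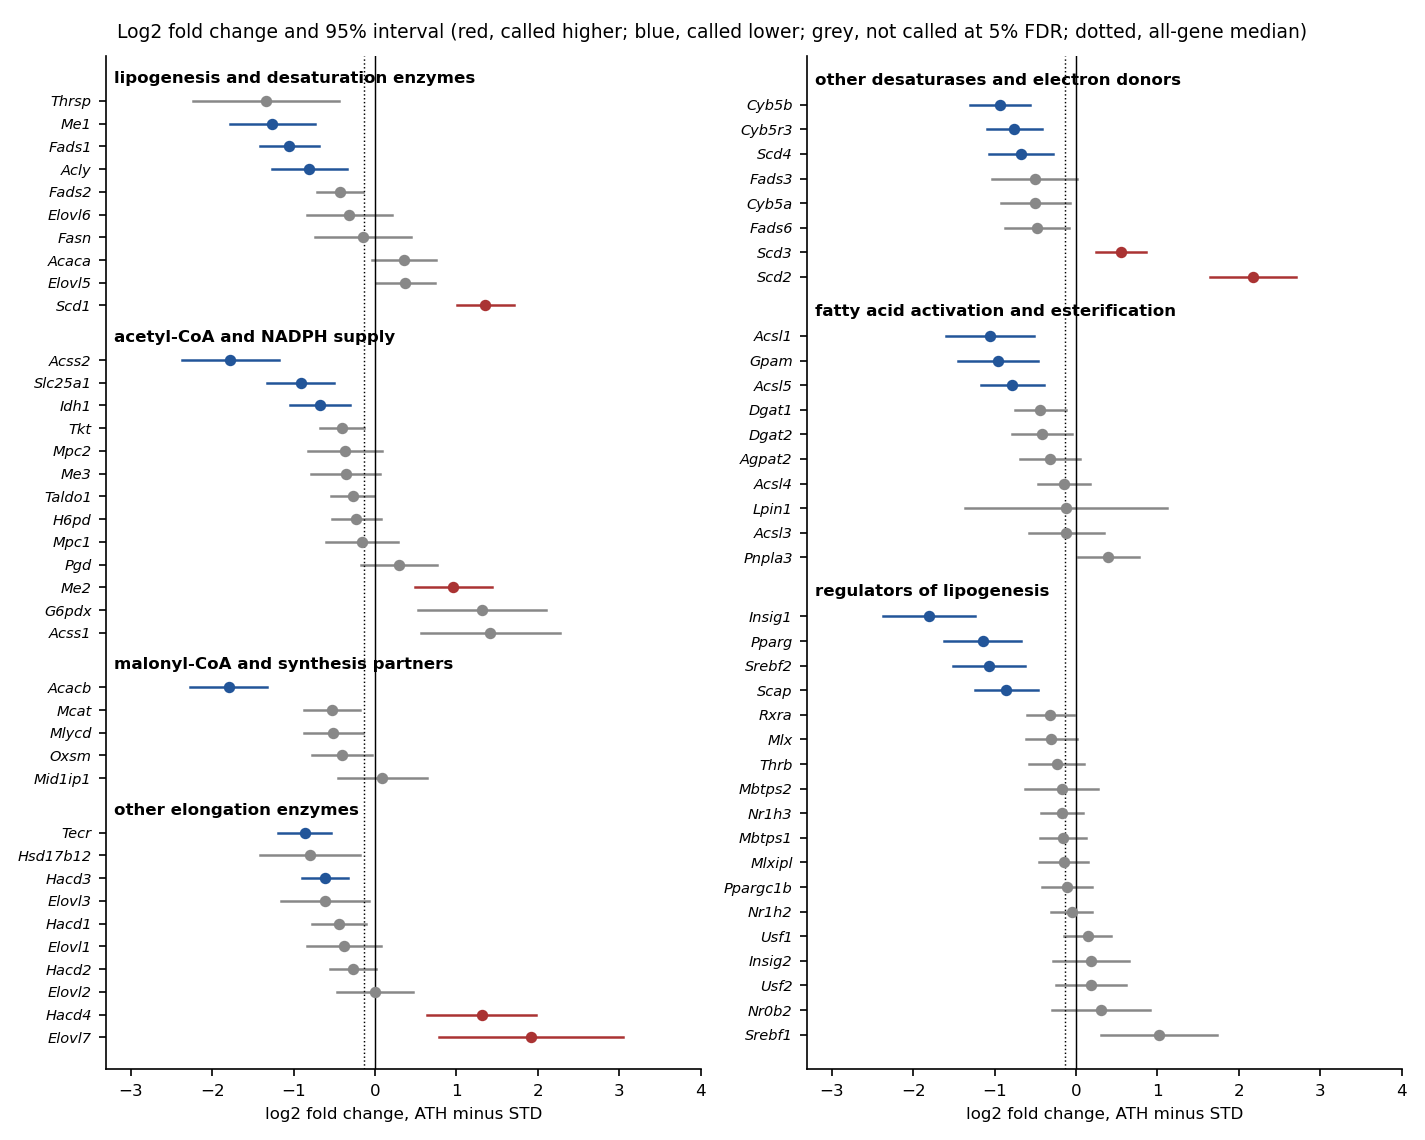
Log2 fold change, ATH minus STD (horizontal axis), with its 95% interval for the 10 members and 64 neighbouring genes grouped by role; red and blue mark genes called higher and lower at a false discovery rate of 5%, grey those not called, and the dotted line the median of all genes. Scd2, Elovl7, Acss1, Scd1, G6pdx and Hacd4 lie farthest to the right, with Acss1 and G6pdx in grey. Acss2, Acacb and Insig1 lie farthest to the left, and each role holds genes not called.

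Fatty acid activation and esterification gave 3 lower and 0 higher of 10 by limma. Acsl1 and Acsl5, acyl-CoA synthetases, fell by 1.05 (limma adjusted p = 0.0361) and by 0.78 (limma adjusted p = 0.0343, or 0.0523 with the replicate block). Gpam, which starts glycerolipid synthesis, fell by 0.96 (limma adjusted p = 0.0364). All 3 calls were lost without scaling (limma adjusted p = 0.0607 for Acsl1, 0.107 for Acsl5 and 0.104 for Gpam). They were also lost with spike-in scaling (limma adjusted p = 0.0518, 0.0619 and 0.0818).

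Of 18 regulators, 4 were lower and 0 higher by limma. Insig1, which holds the SREBP complex in the endoplasmic reticulum and is itself an SREBP target, read 1.72, 1.99, 1.57 and 2.43 in the STD mice and 0.10, 0.60, -0.40 and 0.18 in the ATH mice. It fell 3.51-fold (limma adjusted p = 0.00965) with no overlap. Srebf2, the sterol-responsive SREBP gene, Scap, the SREBP escort, and Pparg, a lipogenic nuclear receptor, fell by 1.07 (limma adjusted p = 0.0215), by 0.85 (limma adjusted p = 0.0277, or 0.0507 with the replicate block) and by 1.15 (limma adjusted p = 0.0208). The Srebf2 call was lost without scaling (limma adjusted p = 0.0626) and with spike-in scaling (limma adjusted p = 0.0650). That of Scap was lost without scaling (limma adjusted p = 0.101), with quantile normalization (limma adjusted p = 0.0631) and with spike-in scaling (limma adjusted p = 0.0830). Srebf1, which encodes SREBP-1, read 6.10, 6.32, 5.79 and 6.17 in the STD mice and 7.20, 7.77, 6.14 and 7.34 in the ATH mice. ATH mice 1, 2 and 4 lay above all STD mice and mouse 3 among them, and the difference of 1.02 did not pass (limma adjusted p = 0.0770), and with 1 array left out it ranged from 0.80 to 1.34 and was called in 1 of 8 fits. Srebf1 was called higher under 4 other settings, at 1.46 without scaling (limma adjusted p = 0.0147), 1.32 with quantile normalization (limma adjusted p = 0.0332), 1.33 with spike-in scaling (limma adjusted p = 0.0305) and 1.05 with the normexp background (limma adjusted p = 0.0333). Mlxipl, which encodes ChREBP, was at -0.15 (limma adjusted p = 0.480) and Nr1h3, which encodes LXR-alpha, at -0.18 (limma adjusted p = 0.336), and both signs turned without scaling, with quantile normalization and with spike-in scaling.

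Cholesterol synthesis, the parallel pathway that also starts from acetyl-CoA, was lower in 20 of 20 genes, all called by limma, with a median log2 fold change of -2.23. Sqle, squalene epoxidase, fell 40.8-fold (limma adjusted p = 0.00663). Against these the 3 called decreases among the fatty acid enzymes ran from 1.75-fold to 2.40-fold.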

How the data were processed

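Agilent whole mouse genome arrays (1 color, Cy3) were used for 8 livers, with each mouse on its own array. Scans were read by the authors with Agilent Feature Extraction 9.5 at its 1-color defaults, and the deposited spot intensity values are background-subtracted and not scaled between arrays. A second deposited table, from GeneSpring, holds log2 values. It has 31595 non-control rows, and those of probes detected here were compared with the log2 signal. In 100% of the rows compared it equals that signal plus constants per array and per probe (tolerance 0.001). Its column medians run from -0.04 to 0.16, and its direction is that of the signal; its baseline is not given in the sources used here.

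Spots of a probe were averaged without outlier-flagged spots, and log2 processed intensity was scaled to the 75th percentile of each array. Probes well above background, positive and significant and free of outlier flags on at least 3 of 4 arrays of either diet were detected, 31056 of 41174. Diet was tested with limma 3.58.1 in R 4.3.3 (lmFit, then eBayes; two-sided p, adjusted over all detected probes by Benjamini-Hochberg). A gene was read from its detected probe with the highest mean over 8 arrays. A 95% interval comes from the same fit. The number of arrays limits the precision. Probe positions are the array design's, on mm7, of which no annotation was used here; promoters are from RefSeq on GRCm38.p6. Names came from accessions for 22951 probes, symbols for 6659 and synonyms for 3109, and 8455 had only the file's name. Probes matched to no gene were left out of the counts and shares over genes. Summaries used Python 3.11.15 with numpy 2.4.6 and pandas 2.3.3, and plots matplotlib 3.10.9.

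Members, gene lists and tests were chosen with earlier results of these data known. Every member is named at every probe, as were from each list of neighbours up to 4 called genes with the largest change, 9 neighbours and 2 further genes picked by name, 1 of which is not reported here. Scd3, Acss1 and G6pdx are named beyond that rule and were chosen after their values were seen. Same-numbered arrays of the diets sit at one slide position and deviated together (correlations 0.1001, 0.2296, 0.1815 and 0.1766), so the number was also fitted as a block. In simulated data for ATH against STD, a log2 change of 2 was given to 200 of 31056 probes. Of the 200, 94% were recovered, with 8 false calls. The log2 fold changes of the 10 members ran from -1.34 to 1.36, and recovery of changes of that size was not tested. Alternatives covered background correction, scaling, detection filter, the deposited table, the test, the threshold, the probe rule, outlier spots, the block and each array left out.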

Additional observations from a re-analysis of the deposited data

Results flagged for a closer look

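In the ATH group, Fasn at its brighter probe (A_51_P321126) had 1 mouse far from the others: mouse 1 read 5.99 on the scaled log2 scale, and its gap to the nearest of the other three was 0.869 of the group's range, above Dixon's critical value for 4 samples. It was the only one flagged of 32 groups (16 probes on each diet), and chance flags about 1 in 20. Without this mouse the log2 fold change of Fasn was 0.02.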

How the results depend on the processing

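Scd1 and Fads1 kept direction and call under every scaling, background, filter and probe rule tried and in all 8 fits without 1 array, and lost the call by the methods' t-test, Fads1 also at the 1% threshold. Me1 kept its call under every scaling. Members called lower numbered 3, and 5 with the normexp background (where 16.7% of all probes were called lower, against 4.94%), 0 at 1% by limma and 0 by the methods' t-test. They numbered 2, Me1 and Fads1, without scaling, with median scaling, quantile normalization, spike-in scaling, no detection filter and the replicate block. Of all probes 1.2%, 2.71%, 2.83%, 1.44%, 1.7% and 2.71% were called lower in these settings, in that order. Members called higher numbered 1, and 3 without scaling, 2 with quantile normalization, 2 when scaled to spike-ins (where 22.5%, 3.36% and 8.39% of all probes were called higher, against 3.06%) and 0 by the methods' t-test, by which 4 lower and 1 higher had an unadjusted p under 0.05 and the smallest adjusted p was 0.0587. Over all probes that t-test called 22 after adjustment at 5% and 7102 without adjustment. The members' median was 0.073 without scaling (all probes 0.30), -0.209 with quantile normalization (all probes -0.05) and -0.0653 with spike-in scaling (all probes 0.16). Related genes called lower numbered 16, and 5 without scaling, 7 with spike-in scaling (1.2% and 1.44% of all probes called lower), 11 with the replicate block, 2 at 1% and 0 by the t-test (26 at an unadjusted p under 0.05). Those called higher numbered 5, and 12 without scaling, 9 with spike-in scaling, 1 with no detection filter, 1 at 1%, 3 with the replicate block and 0 by the t-test (7 unadjusted). The replicate block, which rests on shared slide positions, left Me1, Fads1 and Scd1 called and ended the call of Acly (limma adjusted p = 0.0578) and of Idh1, Elovl7, Hacd3, Scd4, Acsl5 and Scap among the named neighbours; over all probes it gave 1322 calls against 2483.

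Leaving out each array gave 1 to 4 members lower, 1 to 1 higher and a median of -0.43 to -0.30, with 3 to 16 related genes lower and 1 to 6 higher. The lower count fell to 1, Fads1, without STD mouse 2, STD mouse 3, ATH mouse 3 or ATH mouse 4; without ATH mouse 2 it was 4. Related genes called lower fell to 3 without STD mouse 3, to 4 without STD mouse 1, STD mouse 4 or ATH mouse 4, to 6 without ATH mouse 3 and to 10 without STD mouse 2. Those called higher fell to 1 without any single STD mouse, ATH mouse 1 or ATH mouse 4, and to 2 without ATH mouse 3. The share of all probes called lower moved as well, from 4.94% with all arrays. It was 0.902% without STD mouse 1, 2.28% without STD mouse 2, 0.792% without STD mouse 3 and 1.01% without STD mouse 4. For the ATH mice it was 3.49% without mouse 1, 7.12% without mouse 2, 1.36% without mouse 3 and 0.979% without mouse 4. The share called higher ran from 0.477% to 5.7% in these fits, against 3.06%.

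Some values of genes not called changed sign. Elovl2 was 0.0107 with normexp, 0.44 without scaling, 0.0718 with median scaling, 0.21 by quantiles, 0.31 on spike-ins, and -0.178 to 0.103 with 1 array left out (positive without STD mouse 1, STD mouse 2, ATH mouse 3 or ATH mouse 4). Fasn was 0.30, 0.16 and 0.16 without scaling, with quantile normalization and on spike-ins, 0.0412 over the mean of its probes, and -0.332 to 0.0534 with 1 array left out (positive without STD mouse 4 or ATH mouse 1). Without scaling Elovl6 was 0.13 and Fads2 0.0162. Mlxipl was 0.30, 0.15 and 0.16 and Nr1h3 0.27, 0.0708 and 0.13 without scaling, with quantile normalization and on spike-ins, and the hepatocyte marker median was 0.17, 0.0743 and 0.0339. Acaca was -0.0128 over the mean of its probes, and Mid1ip1 -0.02 and -0.10 without STD mouse 1 and ATH mouse 4. The cause was not tested.

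All 16 detected member probes were well above background on all 8 arrays and 0 spots were saturated. A miss of the threshold does not show that levels were alike. Within-slide values could not be had, since each diet lay on 1 slide.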
